A study of Mus musculus with 4 samples.

Results

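The genes described here encode the antimicrobial cargo of Paneth cells, the granule-filled cells at the base of the crypts of the small intestine. They were taken as all probe sets annotated to Lyz1, Lyz2, Mmp7, Pla2g2a, Ang4 or Itln1, plus all probe sets with a symbol that starts with Defa, those with several symbols included. This gave 14 of the 45037 probe sets of the array, 5 of them for alpha-defensins. They name 13 of the 19324 genes on the array. Beta-catenin mutant crypts, in which deletion of the gene had been induced with tamoxifen and run for 2 days (2 arrays), were compared with control crypts of the same day (2 arrays). All crypts were cut from mouse intestine by laser capture microdissection, and their mRNA was amplified in 2 rounds, labelled with biotin and hybridised to 1-colour arrays. The labels used here give neither the strain, age or number of mice, the allele or promoter behind the deletion, nor whether the controls also received tamoxifen. They do not say that the 2 arrays of a group came from separate mice, so the p-values speak for the spread among these arrays alone, and that spread may be technical.

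Paneth cells secrete alpha-defensins (cryptdins in the mouse), small peptides that disrupt bacterial membranes. In the mouse these are made as precursors and cut to their active form by matrilysin, the protease encoded by Mmp7. The same granules hold lysozyme, which cuts bacterial cell walls, a secreted phospholipase A2, and angiogenin 4, a ribonuclease with antibacterial activity. Wnt signals acting through beta-catenin and its DNA-binding TCF/LEF partners are known to drive Paneth cell maturation, and Paneth cells live longer than most other cells of the crypt. The alpha-defensin genes form a large cluster of close paralogs whose gene content differs between inbred mouse strains.

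On the arrays as a whole, trimmed mean intensities were 169 and 111 in the mutants and 131 and 130.2 in the controls, and values were therefore quantile normalised on a log2(intensity + 5) scale. Mutant replicate 1 held pancreatic transcripts. The summed intensity of 14 acinar genes was 102139 in mutant replicate 1 and 1082 in mutant replicate 2, against 1507 and 1750.0 in control replicates 1 and 2. The 5' to 3' ratio of the beta-actin control was 0.0945 and 0.0448 in the mutants and 0.149 and 0.0567 in the controls. All 11 epithelial markers were kept, with mean log2 signals of 11.35 and 11.29 in the mutants and 11.17 and 11.24 in the controls. The brightest Ctnnb1 probe set, for the deleted gene, read 5229 and 3449 in the mutants and 4700 and 5997 in the controls, a log2 difference of -0.56 (SE 0.22, limma adjusted p = 0.785). The labels do not give the deleted exons, so this probe set checks nothing about the labels.

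The 7 Defa symbols named on the array are a small part of the family, which has 29 protein-coding members among 40 Defa entries in the RefSeq table of the GRCm38.p6 assembly. The coding sequences were not examined here. The 250 bases upstream of the annotated start are shown for Defa22, Defa31 and Defa30, because their probe sets gave the 3 kinds of pattern described next, and for the neighbouring genes Lyz1 and Lyz2, because their values differed from each other. Sequences are from RefSeq (GRCm38.p6), 5′ to 3′ on the strand of the gene, with the motif TCAAAG or its complement CTTTGA, the core of TCF/LEF sites, in capitals.
Defa22, chr8:21162027-21162276, plus strand: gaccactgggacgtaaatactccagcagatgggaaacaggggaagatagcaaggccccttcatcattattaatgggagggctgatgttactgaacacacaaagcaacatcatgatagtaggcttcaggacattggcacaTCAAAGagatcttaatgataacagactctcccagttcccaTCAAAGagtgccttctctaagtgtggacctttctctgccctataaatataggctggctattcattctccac
Defa31, chr8:21191323-21191572, plus strand: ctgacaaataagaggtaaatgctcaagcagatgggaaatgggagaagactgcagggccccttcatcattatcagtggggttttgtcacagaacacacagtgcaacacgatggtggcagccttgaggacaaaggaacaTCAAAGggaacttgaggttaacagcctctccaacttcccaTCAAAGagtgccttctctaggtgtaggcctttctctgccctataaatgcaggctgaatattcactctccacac
Defa30, chr8:21134400-21134649, plus strand: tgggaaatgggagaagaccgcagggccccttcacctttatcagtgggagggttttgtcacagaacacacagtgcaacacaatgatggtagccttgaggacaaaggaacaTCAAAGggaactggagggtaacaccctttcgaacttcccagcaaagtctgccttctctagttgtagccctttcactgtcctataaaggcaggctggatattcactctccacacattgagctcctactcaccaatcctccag
Lyz1, chr10:117292869-117293118, minus strand: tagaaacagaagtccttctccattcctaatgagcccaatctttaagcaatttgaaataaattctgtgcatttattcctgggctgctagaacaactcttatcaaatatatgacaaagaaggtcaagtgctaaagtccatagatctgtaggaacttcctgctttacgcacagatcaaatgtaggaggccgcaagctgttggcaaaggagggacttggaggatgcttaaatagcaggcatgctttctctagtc
Lyz2, chr10:117282273-117282522, minus strand: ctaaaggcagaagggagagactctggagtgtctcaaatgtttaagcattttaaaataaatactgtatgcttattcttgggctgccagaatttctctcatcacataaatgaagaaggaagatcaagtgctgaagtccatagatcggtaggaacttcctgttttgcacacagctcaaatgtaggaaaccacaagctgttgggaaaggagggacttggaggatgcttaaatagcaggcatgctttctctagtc

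The window of Defa21 was identical to that of Defa22 over all 250 bases, and 5 protein-coding genes lie between them. Identity was counted over all columns of an end-to-end alignment, with gap columns counted as differences. On this count the Defa22 window shared 78.0% with that of its neighbour Defa31, and the Defa21 window 60.7% with that of Defa30. The Defa30 window reaches further past the stretch it shares with the Defa21 window, and such unmatched ends lower the value. These percentages are therefore not a measure of sequence divergence alone. Over the 120 pairs among 16 alpha-defensin windows, identity on the same count was between 44.3% and 100%, with a median of 69.2%. The motif, searched on both strands, stood in 13 of the 16 alpha-defensin windows, and at 2 places in 9 of them. In the Defa22 window its copies begin 111 and 71 bases before the start. Of all 32851 windows of this length in the table, 13.8% held the motif and 1.37% held 2 or more copies. The alpha-defensin windows descend from common sequence and are not independent of each other. No window was present for Defa3, Defa24 or Defa39, which are named on the array. Of 6 windows of other members, 1 held the motif, at a second annotated start of Mmp7. The windows of Lyz1 and Lyz2 shared 79.4% of alignment columns and held no copy of these letters. A match is a description of letters and not a bound site.

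The alpha-defensin probe sets did not behave as a unit. The probe set for Defa30 and Defa24 (1450631_x_at) was very bright on all arrays, with 12559 and 10630.4 intensity units in mutant replicates 1 and 2, against 10165 and 11032 in control replicates 1 and 2. It was the brightest of all probe sets in control replicate 1 and ranked between 7 and 29 on the other 3 arrays, so that it lay at the top of the measured range. The deposited values of the groups overlapped.

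The probe set for Defa22 and Defa21 (1436857_at) was bright on 1 array of each group and near the bottom of the range on the other. It read 4127 in mutant replicate 1 and 3.75 in mutant replicate 2, against 4490.1 in control replicate 1 and 1.15 in control replicate 2. It thus lay at the 98.6th and 17.8th percentile of the mutant arrays and at the 99.4th and 7.11th percentile of the control arrays. On the log2 scale the gap between replicates 1 and 2 was 8.45 in the mutants and 9.68 in the controls. Taking for each probe set the smallest distance between the pair of arrays numbered 1 and the pair numbered 2, this probe set ranked 1 of 45037 with 8.45, and the next one stood at 2.50. Over all probe sets, 15 had a distance over 2 and 1 had a distance over 4. The pattern followed the sample number and not the genotype, and the labels do not say what same-numbered samples share. The 5' to 3' ratios of the RNA controls moved with the number as well. The Gapdh ratio was 0.104 and 0.0267 in mutant replicates 1 and 2, against 0.116 and 0.0582 in control replicates 1 and 2, and the beta-actin ratio given above was likewise higher in replicate 1 of each group. Their part in the pattern was not tested. The difference between group means was -0.09 (SE 3.15, limma adjusted p = 0.997).

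**Figure D1:**
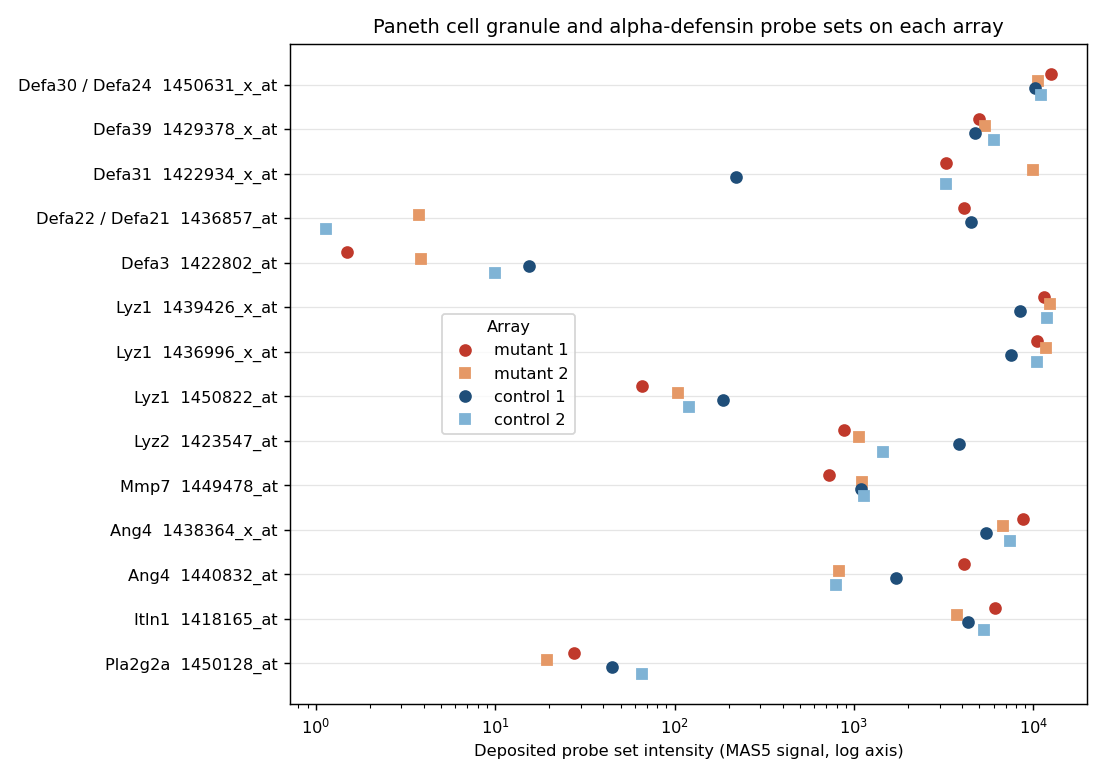
Deposited MAS5 intensity (log axis) of the 14 probe sets on each of the 4 arrays, with mutant points drawn above control points. The Defa22 / Defa21 probe set is split between replicates 1 and 2 in both groups (4127 and 3.75 in mutants, 4490.1 and 1.15 in controls), whereas the Defa30 / Defa24 points lie together between 10165 and 12559.

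The probe set for Defa31 (1422934_x_at), a cryptdin-related gene, varied over a wide range. It read 3249 and 9987 in mutant replicates 1 and 2, against 219 and 3254 in control replicates 1 and 2. The lower mutant value and the higher control value were close to equal, and the lowest value stood in control replicate 1. The log2 means were 12.23 ± 1.33 in mutants and 9.76 ± 2.76 in controls (SD, n = 2 each), a difference of 2.47 (SE 1.09, limma adjusted p = 0.789). Leaving out control replicate 1 gave 0.54 and leaving out control replicate 2 gave 4.43. Leaving out mutant replicate 1 gave 3.46 and leaving out mutant replicate 2 gave 1.51, so each array moved the size of the difference. With median centring in place of quantile normalisation it passed the test, at 2.86 (limma adjusted p = 3.95e-04), a fit in which each probe set's own spread between replicates was given no weight.

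The direction of the sample number gap differed between these probe sets. For Defa31, replicate 1 minus replicate 2 was -1.88 in the mutants and -3.91 in the controls, opposite in sign to the Defa22 and Defa21 probe set. For the Ang4 probe set 1440832_at it was 1.72 in the mutants and 1.22 in the controls. The other members separated the numbers by less than 0.1 on the log2 scale or not at all.

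**Figure D2:**
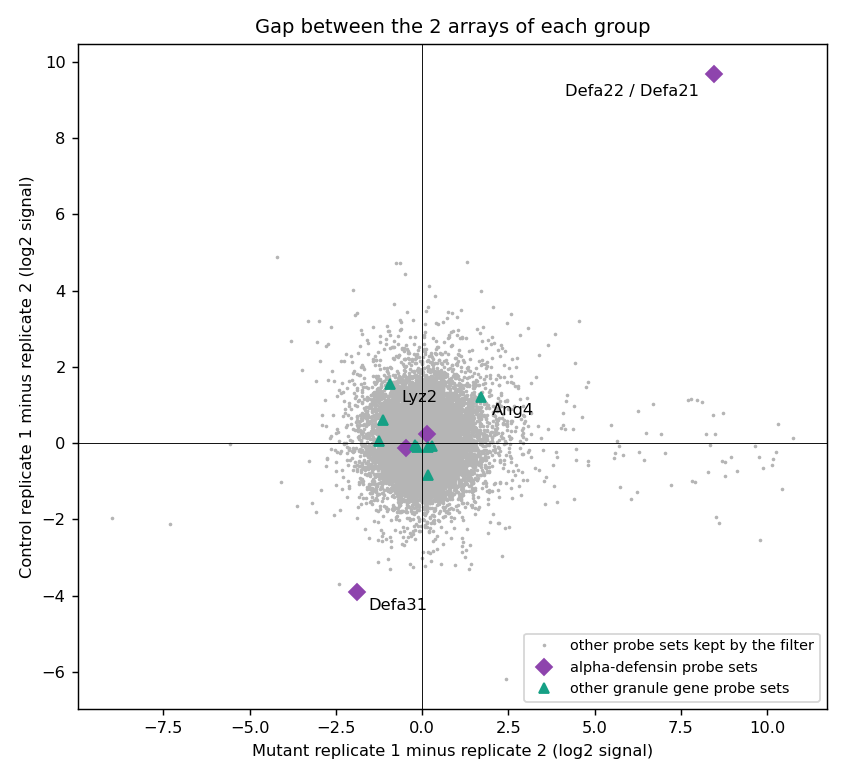
Replicate 1 minus replicate 2 on the log2 scale in mutants (x axis) and in controls (y axis) for every probe set kept by the filter on dim values, with member probe sets as coloured symbols. The Defa22 / Defa21 probe set stands alone at 8.45 and 9.68, Defa31 lies at -1.88 and -3.91, and the points far to the right near 0 are probe sets high in mutant replicate 1 alone.

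The remaining alpha-defensin probe sets were stable or dim. Defa39 (1429378_x_at), a cryptdin-related gene, read 5003 and 5365 in mutants against 4736 and 6033.5 in controls, a log2 difference of -0.32 (SE 0.24, limma adjusted p = 0.858). Its deposited mutant values lay inside the control range. On the normalised scale both mutant values lay below both control values, an order seen for 18.9% of all probe sets tested. Defa3 (1422802_at) read 1.502 and 3.88 in mutants against 15.4 and 10.02 in controls, at the 32.6th percentile or lower on each of the 4 arrays, and was the 1 member of 14 that the filter on dim probe sets removed. Probe sets with _x_at in their name contain probes that match other transcripts too, so paralogs can add to their signal.

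Over the 5 alpha-defensin probe sets, 1 was higher and 4 were lower in mutants on the quantile normalised scale, with a median difference of -0.27, against 0.00 over all 45037 probe sets. This direction turned with the scaling. The median was 0.13 with the values as deposited, 0.25 with median centring and 0.05 with trimmed mean scaling. The median over all 22519 kept probe sets moved too, to -0.03, 0.09 and -0.09 in that order. The difference of the Defa30 and Defa24 probe set, -0.27 (SE 0.19, limma adjusted p = 0.850), turned in the same way, to 0.13 as deposited.

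Mmp7 (1449478_at), the gene of the protease that activates mouse alpha-defensins, read 722 and 1113 in mutants against 1094 and 1135 in controls. Mutant replicate 1, the array with pancreatic transcripts, was low, and the other 3 arrays lay close together. The log2 means were 9.74 ± 0.88 in mutants and 10.20 ± 0.04 in controls (SD, n = 2 each), a difference of -0.47 (SE 0.42, limma adjusted p = 0.876). Without mutant replicate 1 the sign turned, to 0.15. The part of the pancreatic transcripts in this value was not tested.

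Lyz1 encodes the lysozyme of Paneth cells. Its brightest probe set (1439426_x_at) read 11493 and 12346 in mutants against 8453 and 11862 in controls, and 1436996_x_at read 10523 and 11766 in mutants against 7471 and 10405 in controls. Both ranked between 5 and 37 on each array, at the top of the range, and control replicate 1 gave the lowest value of each. After quantile normalisation the differences were -0.14 (SE 0.18, limma adjusted p = 0.925) and 0.00 (SE 0.19, limma adjusted p = 0.9998). As deposited they were 0.25 and 0.34, and with median centring 0.37 and 0.45. The dimmest Lyz1 probe set (1450822_at) gave the opposite order, with 66.2 and 105 in mutants against 186 and 120.0 in controls, and a difference of -0.72 (SE 0.47, limma adjusted p = 0.830). Leaving out mutant replicate 1, whose array carried pancreatic transcripts, gave -0.15, and leaving out mutant replicate 2 gave -1.31.

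Lyz2 encodes the lysozyme of macrophages and other myeloid cells, and no protein-coding gene lies between it and Lyz1. Its probe set (1423547_at) read 879 and 1063 in mutants against 3833 and 1455 in controls, so that both mutant values lay below both control values. The log2 means were 9.84 ± 0.65 in mutants and 11.33 ± 1.09 in controls (SD, n = 2 each). The difference of -1.49 (SE 0.51, 2.80-fold lower in mutants) had the lowest p of the 13 members tested but did not pass over the whole array (limma adjusted p = 0.768). It kept its sign under every scaling tried, between -1.17 and -1.49, and was between -0.72 and -2.26 with 1 array left out. Its lowest size came without control replicate 1. In bulk crypt RNA, fewer cells of a type and less RNA per cell cannot be told apart.

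Markers of macrophages and neutrophils are given beside the Lyz2 values, and their part in them was not tested. Of 21 listed genes 19 had a probe set with 1 symbol and 14 were kept, 7 higher and 7 lower in mutants, with a median difference of 0.11. Their summed intensity was 3451 and 2300.0 in mutants against 2236 and 1887 in controls. The 3 with the smallest p were all higher in mutants. They were the macrophage receptor gene Csf1r at 0.57 (SE 0.36), the pore-forming protein gene Mpeg1 at 0.61 (SE 0.42) and the scavenger receptor gene Cd163 at 0.67 (SE 0.50). The 7 lower genes, Cd14 and Adgre1 among them, differed by between -0.18 (Cd68, SE 0.46) and -0.02 (C1qa, SE 0.41). The neutrophil genes S100a8, S100a9, Mpo and Elane, and the integrin gene Itgam, were all below the filter, with no intensity above 21.1. The Lyz1 and Lyz2 transcripts are close relatives, and signal of one on the probe set of the other cannot be told apart here.

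Of the other granule genes, Ang4 had probe sets that disagreed in spread. The brighter one (1438364_x_at) read 8693 and 6765 in mutants against 5446 and 7412 in controls, a difference of 0.01 (SE 0.20, limma adjusted p = 0.994). The second (1440832_at) read 4112 and 826 in mutants against 1723 and 792 in controls, a difference of 0.52 (SE 0.58, limma adjusted p = 0.906). Mutant replicate 1, the array with pancreatic transcripts, gave its highest value, and without that array the difference was -0.35. The part of the pancreatic transcripts in it was not tested.

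Itln1 encodes intelectin, a lectin that binds sugars of microbial surfaces. Its probe set (1418165_at) read 6125 and 3756 in mutants against 4291 and 5329 in controls. The deposited control values lay between the mutant values. On the normalised scale both mutant values lay below both control values, an order seen for 18.9% of all probe sets tested. The difference was -0.24 (SE 0.23, limma adjusted p = 0.886), or 0.00 as deposited and 0.12 with median centring.

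Pla2g2a, for the secreted phospholipase A2 of group IIA, is listed in the RefSeq table of the C57BL/6J assembly as a transcribed pseudogene. Its probe set (1450128_at) was dim, with 27.4 and 19.5 in mutants against 45.0 and 66.0 in controls, between the 47.7th and 69.0th percentile of the arrays. Both mutant values lay below both control values. The difference was -0.92 (SE 0.46, 1.89-fold lower in mutants, limma adjusted p = 0.789), and it was negative under all 4 scalings. Leaving out control replicate 1 gave -1.40 and leaving out control replicate 2 gave -0.48.

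**Figure D3:**
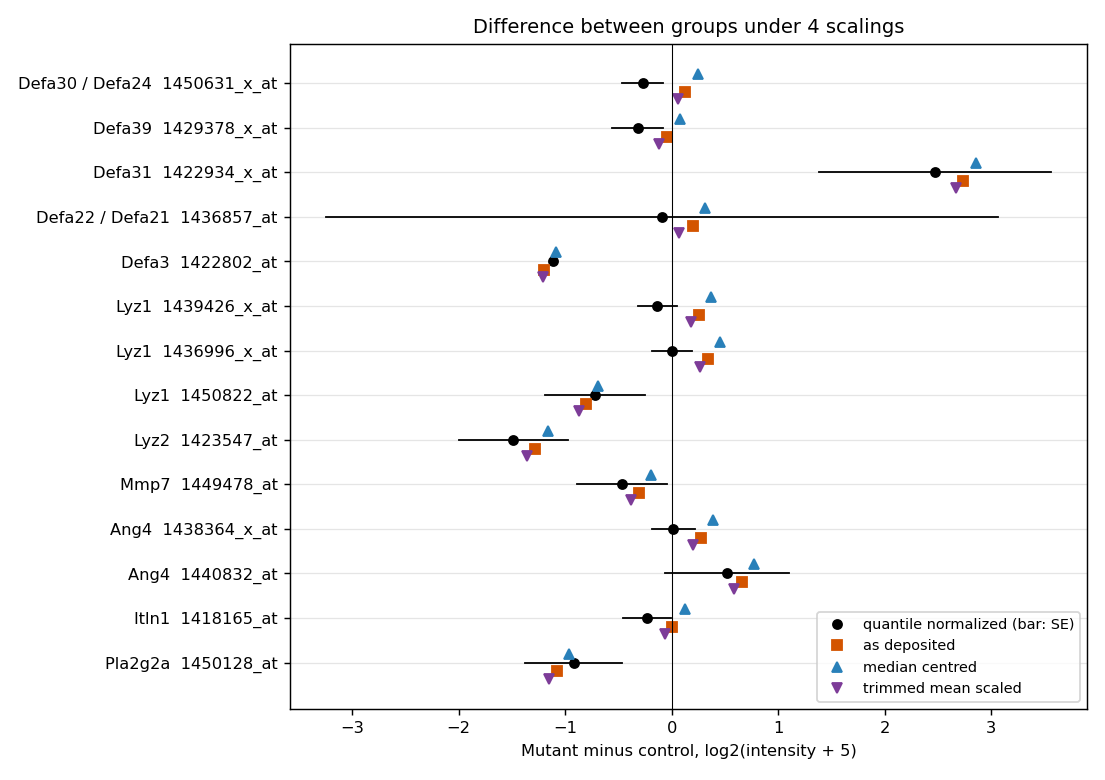
Mutant minus control difference in log2(intensity + 5) for the 14 probe sets under 4 scalings, with the standard error of the limma fit as a bar on the quantile normalised value (no bar for Defa3, which was not tested). Lyz2 and Pla2g2a are below 0 under all 4 scalings, Defa31 is above 0 under all 4, and Defa30 / Defa24 and the brightest Lyz1 probe set cross 0.

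Across the members, 0 of the 13 tested passed the limma test at an adjusted p of 0.05, where 0% of all 22519 probe sets tested did. At an unadjusted p under 0.05 it was 1 of 13 (Lyz2), beside 6.28% of all probe sets. The lowest adjusted p among the members was 0.768. Of the 13, 4 were higher and 9 lower in mutants, with a median of -0.24, against 49.8% higher and 50.2% lower and a median of 0.00 over all probe sets tested. This tally turned with the scaling. Over all 14 member probe sets, 4 were higher and 10 lower on the normalised scale, 8 higher and 6 lower as deposited, and 9 higher and 5 lower with median centring. Over all 45037 probe sets, 22555 were higher and 22482 lower on the normalised scale. As deposited these counts were 21002 and 24035, and with median centring 25133 and 19904. The groups did not overlap, with mutants lower, for 6 of the 13 (Lyz2, Pla2g2a, Itln1, Defa39, the shared set of Defa30 and Defa24, and Lyz1 1439426_x_at), beside a background of 18.9%. In the deposited values this held for 3 of the 13 (Lyz2, Pla2g2a and the dim Lyz1 probe set), beside 15.8%. The opposite order was seen for 0 members after normalisation, beside 17.3%, and for 1 in the deposited values (Lyz1, 1436996_x_at), beside 13.3%.

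Other genes of the Paneth lineage were described from lists. Of 12 further Paneth cell genes 8 had a probe set with 1 symbol and 7 were kept. Of these 5 were higher and 2 lower in mutants, with a median difference of 0.26, and 0 passed. Nupr1, a stress-responsive chromatin protein gene, read 958 and 449.7 in mutants against 108 and 156 in controls, a log2 difference of 2.28 (SE 0.38, limma adjusted p = 0.732). Tgfa, a ligand of the epidermal growth factor receptor, differed by 1.19 (SE 0.37). The pentraxin gene Mptx1 differed by 0.26 (SE 0.32). Both mutant arrays exceeded both controls for 2 of the 7 (Nupr1 and Tgfa), beside 17.3% of all probe sets tested. Nupr1 and Tgfa each read highest on mutant replicate 1, the array with pancreatic transcripts, whose part in these values was not tested.

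Factors that set the secretory fate or Paneth maturation gave 9 higher and 4 lower of 13 kept, with a median of 0.21 and 0 past the test. Atoh1, which commits crypt cells to the secretory lineage, differed by 0.82 (SE 0.38) and Spdef, a factor of goblet and Paneth cell maturation, by 1.30 (SE 0.49). Foxa2, a transcription factor of the gut epithelium, differed by -0.99 (SE 0.39).

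Beside the granule genes, all 11 crypt base stem cell markers kept were lower in mutants with groups that did not overlap, at a median of -1.13, beside a background of 18.9%, and 0 passed. Goblet cell markers gave 11 higher and 2 lower of 13, with a median of 0.63 and 0 past the test. Itln1 is also known from goblet cells, and its own difference had the opposite sign on the normalised scale. Other epithelial antimicrobial genes gave 7 higher and 3 lower of 10, with a median of 0.35 and 0 past the test. Among them the bactericidal lectin gene Reg3g read 8613 and 10105 in mutants against 2371 and 2135 in controls. Of 42 paralogs of the members outside the rule, among them beta-defensins and other angiogenins, 35 had a probe set with 1 symbol and 8 were kept. These 8 gave 3 higher and 5 lower, with a median of -0.29 and 0 past the test.

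**Figure D4:**
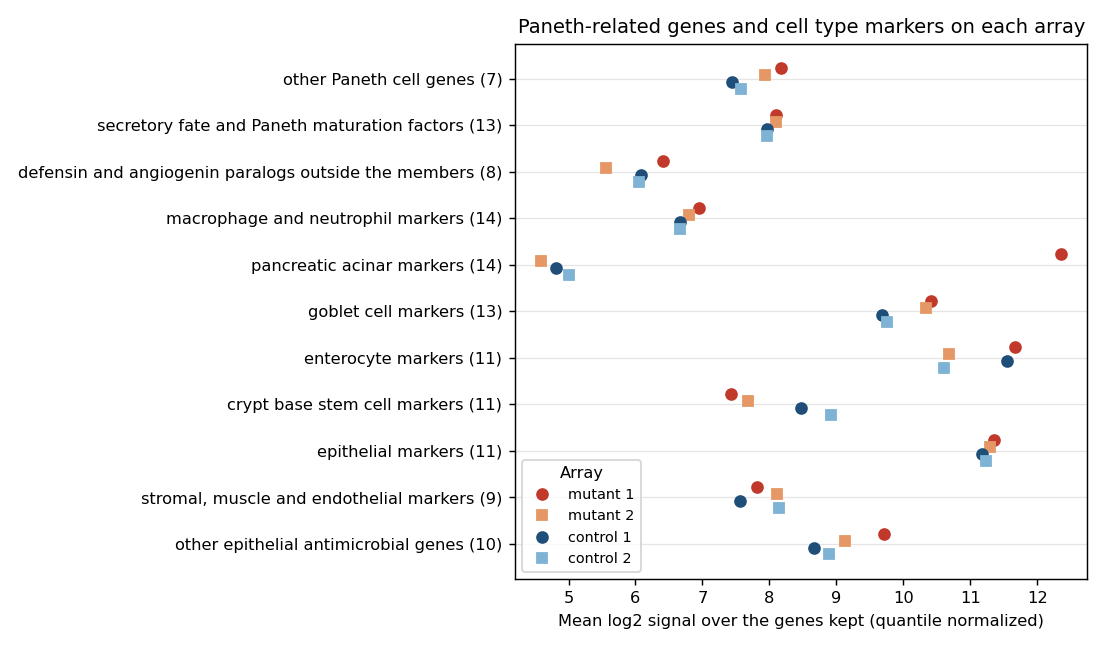
Mean log2 signal over the kept genes of each list (number in brackets) on each array, with mutant points drawn above control points. Pancreatic acinar markers stand apart in mutant replicate 1, crypt base stem cell markers lie lower in both mutants, and the macrophage and neutrophil markers lie between 6.66 and 6.95 on all arrays.

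The median profile of the 5 alpha-defensin probe sets, each centred on its own mean, was -0.06 and -0.22 in the mutants and 0.26 and 0.23 in the controls. The genes nearest to it over these 4 arrays, by root mean square difference, were Prpf4b (0.053), Etfa (0.054), Dnm1l (0.055), Klhl9 (0.057) and Phax (0.059). The profile is a median, and the Defa22 and Defa21 probe set and the Defa31 probe set each spanned a much wider range. Profile and neighbours were taken on the quantile normalised scale alone. The alpha-defensin median difference turned sign under the other scalings.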

How the data were processed

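The authors deposited linear probe set intensities. The submitters' processing notes name MAS5 as their source. The version and the scaling target were not stated in those notes. Because MAS5 takes off mismatch signal, dim probe sets are noisy, and the number of arrays limits precision. The 64 control probe sets were left out. Names came from the platform annotation (34945 probe sets with 1 symbol, 932 with several, 9160 with none), and all 13 symbols of the members were found in RefSeq. Several-symbol probe sets are given with all their symbols.

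Values were taken as log2(intensity + 5), 5 being the rounded 20th percentile. Trimmed means differed by up to 1.53 times, beyond the limit of 10%, and values were quantile normalised. Probe sets at or above the median mean signal (log2 4.79) were kept, 22519 in all. Groups were compared with limma 3.58.1 (R 4.3.3), with an intensity trend, 2 residual and 6.4 prior degrees of freedom, two-sided, Benjamini-Hochberg adjusted over all kept probe sets, after a check on simulated data. The simulated arrays had normal noise with a spread set by signal alone and no outlying array, so the check does not cover such arrays. The fold changes understate dim probe sets. Members and lists were chosen with earlier results of these data known. All members are named, with up to 3 genes of each list by smallest p and the 5 nearest profiles. From the macrophage and neutrophil list, some lower genes and genes below the filter are named as well. Alternatives covered scaling, pseudocount, filter, moderation, a replicate block and leaving out each array.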

Additional observations from a re-analysis of the deposited data

How the results depend on the processing

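The number of probe sets past the test over the whole array was 0, and it was 2 with the values as deposited, 102 with median centring, 1 with the replicate block, and between 0 and 90 with 1 array left out. Under median centring the prior degrees of freedom were infinite, so each probe set's own spread had no weight; 1 member (Defa31, 2.86) and 15 list genes passed, 12 of these pancreatic. Leaving out 1 array gave between 0 and 15 list genes, the 15 without mutant replicate 2, and 0 members each time. The alpha-defensin median of -0.27 turned to 0.13 as deposited, 0.25 with median centring and 0.053 with trimmed mean scaling, and was between -0.38 and -0.14 with 1 array left out. The median of all members, -0.26, turned to 0.065 as deposited and 0.18 with median centring, stood at -0.0075 with trimmed mean scaling, and was between -0.31 and -0.18 with 1 array left out. Over all kept probe sets the median was -0.025 as deposited, 0.094 with median centring and -0.094 with trimmed mean scaling. Signs also turned for single probe sets. As deposited they were 0.0046 for Itln1, 0.19 for Defa22 and Defa21, 0.25 for Lyz1 (1439426_x_at) and 0.13 for Defa30 and Defa24. With median centring they were 0.12, 0.31, 0.37 and 0.25 in that order, and 0.074 for Defa39. With trimmed mean scaling they were 0.065 for Defa22 and Defa21, 0.18 for Lyz1 and 0.053 for Defa30 and Defa24, and with a pseudocount of 1 Defa22 and Defa21 stood at 0.20. With 1 array left out the ranges that crossed 0 were -4.90 to 4.78 for Defa22 and Defa21, -0.082 to 0.10 for Ang4 (1438364_x_at), -0.35 to 1.34 for Ang4 (1440832_at), -1.08 to 0.15 for Mmp7 and -0.10 to 0.10 for Lyz1 (1436996_x_at). Lyz2, Pla2g2a, Defa31, Defa3 and the dim Lyz1 probe set kept their sign under every alternative run. Over all kept probe sets, the deviations of same-numbered samples from their group means had a correlation of 0.034 (2 pairs). That value includes the probe sets high in mutant replicate 1 alone, and it does not speak for single probe sets. The replicate block changed no member's call. For Defa31 it lowered the SE from 1.09 to 0.42 and the limma adjusted p from 0.789 to 0.327. For very bright probe sets, the top of the signal range limits what can be measured.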

Other observations

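Besides the Defa22 and Defa21 probe set, 14 probe sets separated the arrays numbered 1 from those numbered 2 by over 2 on the log2 scale in both groups, and 13 of the 15 in all were higher in replicate 1. The genes given here were chosen after their values were seen. The intestinal peptide transporter gene Slc15a1 had log2 signals of 8.95 and 6.90 in mutant replicates 1 and 2, against 9.57 and 6.01 in control replicates 1 and 2. The cytochrome P450 gene Cyp3a13 had 11.63 and 9.60 in the mutants, against 11.77 and 9.54 in the controls. The adhesion molecule gene Ceacam10 ran the other way, with 5.40 and 7.80 in the mutants, against 3.99 and 7.69 in the controls. Enterocyte markers as a list also stood higher on the arrays numbered 1, with mean log2 signals of 11.66 and 10.68 in the mutants, against 11.55 and 10.60 in the controls. The 5' to 3' ratios of the beta-actin and Gapdh controls were also higher in replicate 1 of each group, and their part in these values was not tested.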
